A study of Hydra vulgaris with 36 samples.

Results

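The proximal parts of original Hydra tentacles were compared directly between animals treated with siRNA against Sp5 (n = 3 libraries) and animals treated with siRNA against Zic4 (n = 4 libraries). These 7 libraries were taken by their labels from the 36 of the series, and the comparison asks how the knockdowns differ from each other where the tentacle meets the head. All groups used here were wild type Hydra vulgaris of strain Hm_105, electroporated 3 times with siRNA at 1.35 micromolar, 20 to 30 animals per treatment, and sampled 7 days after the last electroporation. The other groups drawn on were proximal and distal parts after mock RNAi (n = 4 each), the distal parts after Zic4 RNAi (n = 4) and after Sp5 RNAi (n = 3), and ectopic tentacles of Sp5 RNAi animals (n = 3), which are tentacles at other positions on the body. Tissue was pooled before RNA extraction and the cDNA was amplified by SmartSeq2. The labels do not say whether the numbered libraries of a group came from separate treatments. The p-values measure the spread between libraries within groups, estimated over all 25 libraries of these 7 groups, and that spread may be technical. The transcripts of Sp5 and Zic4 could not be matched by name in the table used, so the depth of each knockdown is not analysed here.

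Sp5 and Zic4 are zinc finger transcription factors. In Hydra, Sp5 is known as a target of Wnt/beta-catenin signalling that represses Wnt3 and restrains head formation, and Zic4 is known as a factor that keeps the epithelial cells of the tentacle in their tentacle state. Wnt ligands bind Frizzled receptors, and the signal is relayed by beta-catenin, whose breakdown depends on the kinase GSK3. Tentacles are covered by battery cells, epithelial cells that hold the stinging cells (nematocytes), while nematocyte precursors, gland cells and the head organizer lie in the body column and the hypostome.

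Depth and composition differed between the knockdowns. The Sp5 RNAi proximal libraries held 2.57 to 3.22 M (mega) counts and the Zic4 RNAi proximal libraries 6.91 to 10.59 M, with no overlap. The 10 most abundant genes took 13.42% to 16.17% of the counts after Sp5 RNAi, 10.72% to 13.82% after Zic4 RNAi and 17.16% to 23.14% in the mock proximal libraries. At an equal depth of 2.57 M counts, 9731 to 10881 genes had at least 10 counts after Sp5 RNAi and 10985 to 11286 after Zic4 RNAi. Group, depth and this share of abundant genes go together, and their parts in a difference cannot be told apart by the design. Levels of 3 counts corresponded to 1.12 CPM in the Sp5 RNAi libraries and 0.338 CPM in the Zic4 RNAi libraries on average. CPM here means counts per M counts after TMM scaling. Floors cover counting error only, since PCR reads are not independent molecules. Battery cell, tentacle Wnt and tentacle homeobox genes were present in all 7 libraries, as the values given with each gene show.

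Of 14332 genes tested with edgeR's quasi-likelihood test, 526 were called at a Benjamini-Hochberg adjusted p under 0.05, which is 3.67%. The Sp5 RNAi libraries were higher in 362 of them (2.53% of the genes tested) and the Zic4 RNAi libraries in 164 (1.14%). The median log2 fold change, Sp5 RNAi over Zic4 RNAi, was 1.74 in the first set and -1.55 in the second, and 0 over all genes tested. A change of at least 1 on the log2 scale was reached by 504 of the 526, and of at least 2 by 165. The 3 Sp5 RNAi libraries and the 4 Zic4 RNAi libraries did not overlap in 511 of the called genes, against 3503 (24.4%) of all genes tested. Genes higher after Sp5 RNAi had a median of 39.0 CPM after Sp5 RNAi, 10.3 CPM after Zic4 RNAi and 24.5 CPM in mock proximal parts. Genes higher after Zic4 RNAi had a median of 36.2 CPM after Zic4 RNAi, 13.7 CPM after Sp5 RNAi and 13.2 CPM in mock proximal parts. The mock mean was nearer to the Sp5 RNAi mean than to the Zic4 RNAi mean, on the scale of log2(CPM + 1), in 241 of the 362 genes higher after Sp5 RNAi (66.6%) and in 137 of the 164 higher after Zic4 RNAi (83.5%), against 67.4% of all genes tested. The share in the first set was close to that of all genes tested.

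**Figure D1:**
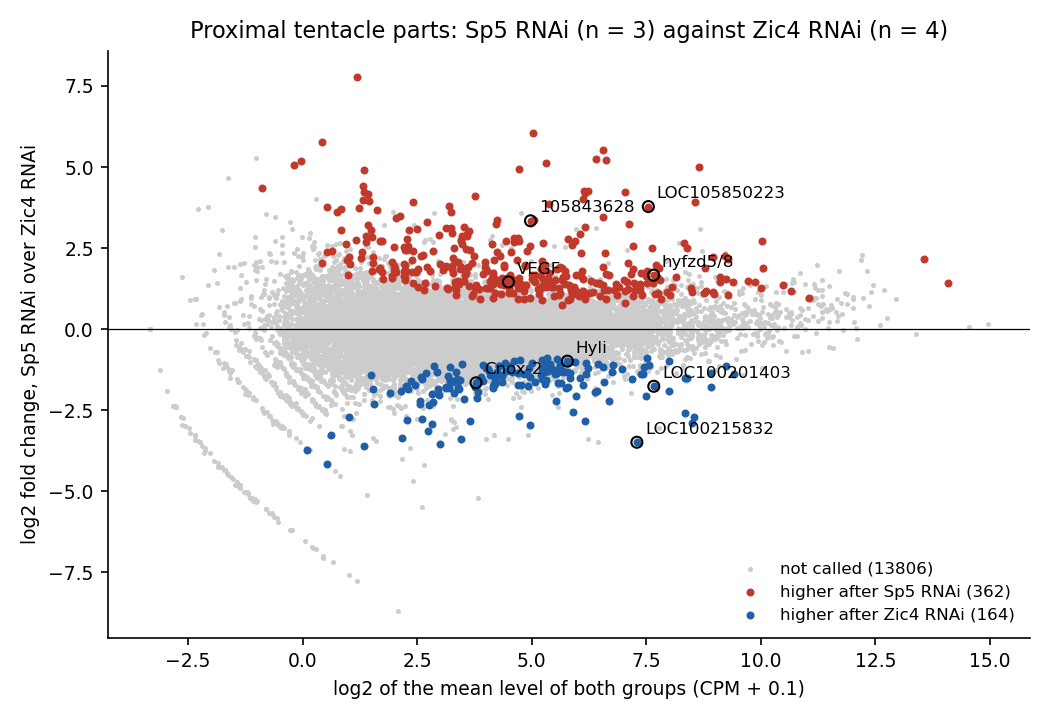
Log2 fold change of Sp5 RNAi (n = 3) over Zic4 RNAi (n = 4) in proximal parts against the log2 mean level of each of 14332 genes; red and blue points are the 362 and 164 called genes, grey points were not called, and circles mark genes described in the text. Called genes lie on both sides of 0, and the grey arcs at the lower left are scarce genes with few or no counts in the Sp5 RNAi libraries.

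The number of called genes rested on single libraries and on the fit. It was 129 without Sp5 RNAi replicate 1, 138 without replicate 2 and 830 without replicate 3. Leaving out a Zic4 RNAi library gave 263, 184, 330 and 342 for replicates 1 to 4. With the share of the 10 most abundant genes as a covariate 99 genes were called, 77 higher after Sp5 RNAi and 22 higher after Zic4 RNAi. With a spread estimated from the compared groups alone 1189 genes were called, divided 620 to 569. Thinning the libraries above 2.57 M counts to that depth, which the 7 compared libraries then share, gave 496; 2 mock libraries of 2.39 and 2.04 M were kept whole. A core of 72 genes was called in every one of these fits and in the others given with the processing, 59 of them higher after Sp5 RNAi and 13 higher after Zic4 RNAi. The receptor gene hyfzd5/8 was the one member of this core with a gene name of its own. The core was selected on the calls, so its values are given as a description.

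**Figure D2:**
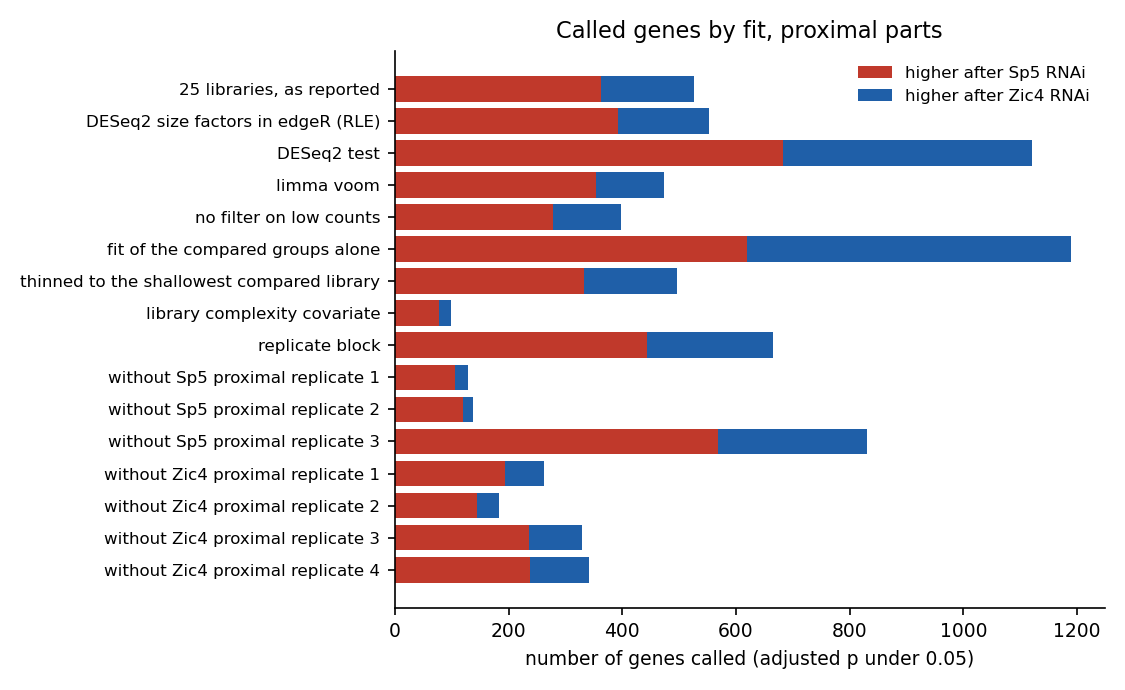
Number of genes called between Sp5 RNAi and Zic4 RNAi proximal parts in the reported fit and in each alternative, with genes higher after Sp5 RNAi in red and higher after Zic4 RNAi in blue. The bars run from 99 to 1189 around the reported 526, and the red part is the larger in each of the 16 fits shown.

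Only 120 genes of the count table carried a gene name of their own, and 104 of those were tested. Calls were made for 4 of the 104, 2 in each direction, a share close to the 3.67% of all genes. The 4 were hyfzd5/8 and VEGF, higher after Sp5 RNAi, and Cnox-2 and Hyli, higher after Zic4 RNAi. The groups of named genes are given next by their roles. Beside their counts, 3208 of all 14332 genes tested had an unadjusted edgeR p under 0.05. Over the same genes, 7165 log2 fold changes were positive and 7161 negative.

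Among the Wnt receptors and effectors, 1 of 5 tested genes was called higher after Sp5 RNAi and none was called lower, with a median log2 fold change of -0.19. The called gene was hyfzd5/8, a Frizzled gene, whose protein is a Wnt receptor. Its level was 259.6, 349 and 314 CPM in the Sp5 RNAi libraries and 104, 69.9, 89.7 and 124 CPM in the Zic4 RNAi libraries. The lowest Sp5 RNAi library was above the highest Zic4 RNAi library by a wide margin. Group levels were 307 ± 45 CPM (SD, n = 3) and 96.8 ± 22.7 CPM (SD, n = 4), a 3.18-fold difference (log2 fold change 1.67, SE 0.23, adjusted p = 0.000138 with edgeR). The call held in all 15 alternative fits, with adjusted p-values from 1.07e-11 to 0.00579. Mock proximal parts had 121, 109, 121 and 151 CPM, close to the Zic4 RNAi libraries. The contrast of Sp5 RNAi with mock gave a log2 fold change of 1.29 (adjusted p = 0.002) and that of Zic4 RNAi with mock -0.37 (adjusted p = 0.181), both against the same mock libraries. In distal parts the gene had 211, 205 and 199.6 CPM after Sp5 RNAi and 159, 102, 141 and 139 CPM after Zic4 RNAi (log2 fold change 0.60, adjusted p = 0.292), and in ectopic tentacles 56.4, 73.3 and 80.9 CPM. The difference between the proximal and distal contrasts was 1.07 and did not pass the test (adjusted p = 0.181).

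The other receptors and effectors were not called. The gene ctnnb1, which encodes beta-catenin, had 259, 317 and 533 CPM after Sp5 RNAi and 308, 402, 345 and 312 CPM after Zic4 RNAi (log2 fold change 0.11, SE 0.33). Its Zic4 RNAi values lay inside the Sp5 RNAi range. The kinase gene GSK3 had 38.6 ± 5.92 CPM (SD, n = 3) and 51.7 ± 9.23 CPM (SD, n = 4) in the same order (log2 fold change -0.42, adjusted p = 0.296). The receptor gene lgr had 9.91, 7.88 and 11.6 CPM after Sp5 RNAi and 11.2, 17.7, 10.5 and 5.43 CPM after Zic4 RNAi, and at most 3.09 CPM in the distal parts of either knockdown. Its proximal levels overlapped fully (log2 fold change -0.19, SE 0.63).

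Of 11 Wnt ligand genes, 6 were tested and none was called by edgeR, DESeq2 or limma voom, with 1 at an unadjusted edgeR p under 0.05 and a median log2 fold change of -0.03. The hywnt8 level was 25.6, 22.1 and 18.1 CPM after Sp5 RNAi and 29.9, 33.8, 72.9 and 33.2 CPM after Zic4 RNAi (log2 fold change -0.96, SE 0.36, adjusted p = 0.121). These libraries did not overlap, and Zic4 RNAi replicate 3 stood above the rest. The other tentacle ligand gene, hywnt5a, had 90.4, 98.8 and 114 CPM and 99.2, 102, 83.1 and 68.3 CPM, with overlap (log2 fold change 0.20, SE 0.26). For hywnt7, a ligand gene of the head organizer, the Sp5 RNAi libraries had 8.67, 6.3 and 31.9 CPM and the Zic4 RNAi libraries 28.9, 41.3, 43.5 and 55.6 CPM. Sp5 RNAi replicate 3 reached the Zic4 RNAi range and the others did not (log2 fold change -1.42, SE 1.05, adjusted p = 0.439). Wnt3a, the Wnt3 family gene, was at 2.48, 3.15 and 1.25 CPM after Sp5 RNAi and 2.64, 0.893, 4.69 and 2.33 CPM after Zic4 RNAi, against 7.35 to 25.7 CPM in mock proximal parts. Its log2 fold change against those mock libraries was -2.96 after Sp5 RNAi (adjusted p = 0.0106) and -2.72 after Zic4 RNAi (adjusted p = 0.000648), and the knockdowns overlapped each other (log2 fold change -0.24, SE 0.68). The genes hywnt11 and hywnt16 had log2 fold changes of 0.18 (SE 0.69) and 0.23 (SE 0.34). The 5 untested ligand genes, hywnt1, hywnt2 and the 3 of the hywnt9/10 group, had at most 5 counts in any of the 7 libraries.

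Axial and neural transcription factors numbered 12, of which 11 were tested and 1 was called, with a median log2 fold change of -0.11. The called gene was Cnox-2 (LOC100215022), a homeobox gene. It had 5.78, 7.09 and 6.88 CPM after Sp5 RNAi and 21.2, 30.7, 18.4 and 12.8 CPM after Zic4 RNAi. The Sp5 RNAi libraries lay close together and below each Zic4 RNAi library. Levels of 6.58 ± 0.704 CPM (SD, n = 3) and 20.8 ± 7.5 CPM (SD, n = 4) gave a 3.15-fold higher level after Zic4 RNAi (log2 fold change -1.65, SE 0.46, adjusted p = 0.0419). The mean of the mock proximal parts lay between, with libraries at 16.3, 13.5, 9.95 and 8.62 CPM, and the contrasts of Sp5 RNAi (-0.87) and Zic4 RNAi (0.78) with mock did not pass the test (adjusted p = 0.282 and 0.127). The Cnox-2 call was lost in 9 of 15 alternative fits, with an adjusted p of 0.126 with the covariate for abundant genes, 0.0575 with thinned libraries, and 0.164, 0.136 and 0.0666 without Sp5 RNAi replicates 1, 2 and 3. Without Zic4 RNAi replicates 1, 2 and 3 it was 0.0763, 0.135 and 0.0611.

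Further factors were not called by edgeR in the reported fit. CUX1 passed in 2 of 15 alternative fits and HyBra1 in 1 of 13, while Bra2 and CREB passed in none. CUX1, a cut-like homeobox gene, had 61.9, 44.5 and 74.1 CPM after Sp5 RNAi and 33.8, 28.6, 34.5 and 35.2 CPM after Zic4 RNAi, without overlap (log2 fold change 0.87, SE 0.27, adjusted p = 0.0634). CUX1 was called by DESeq2 (adjusted p = 0.0209) and with the compared groups alone (adjusted p = 0.0393). HyBra1, a Brachyury gene of the head organizer, had 0 counts in all 3 Sp5 RNAi libraries and 2.81, 1.15, 3.79 and 2.33 CPM after Zic4 RNAi. The Zic4 RNAi mean was at least 2.25-fold higher than a level of 3 counts in the Sp5 RNAi libraries, and edgeR gave an adjusted p of 0.0871, or 0.0219 with the compared groups alone. Its paralog Bra2 was present after both treatments, at 4.95, 4.33 and 3.44 CPM and 5.12, 11, 7.48 and 4.27 CPM (log2 fold change -0.72, SE 0.53). CREB, a cAMP response factor gene, had 5.37, 5.51 and 8.13 CPM after Sp5 RNAi and 15.5, 27.6, 9.15 and 8.79 CPM after Zic4 RNAi, with no overlap and a spread among the Zic4 RNAi libraries (log2 fold change -1.25, SE 0.49, adjusted p = 0.131).

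The tentacle homeobox gene Alx overlapped between the knockdowns, with 29.7, 46.9 and 43.5 CPM after Sp5 RNAi and 65.6, 31.5, 30 and 65.7 CPM after Zic4 RNAi (log2 fold change -0.27, SE 0.33). CnOtx, an Otx homeobox gene, had 133, 132 and 141 CPM and 130.3, 99, 87.3 and 101 CPM, a small gap of 0.38 on the log2 scale (SE 0.26, adjusted p = 0.397). CnNK-2, an NK-2 homeobox gene known from the foot end of Hydra, was found in Sp5 RNAi replicate 2 alone among the 7 libraries, at 2.36 CPM. That library held 6 counts of it. The Sp5 RNAi mean of 0.788 CPM was below the 1.12 CPM that 3 counts equal in the Sp5 RNAi libraries, so no fold is given. The adjusted p with edgeR was 0.0599, a value carried by that 1 library, and 0.0314 without Sp5 RNAi replicate 3.

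**Figure D3:**
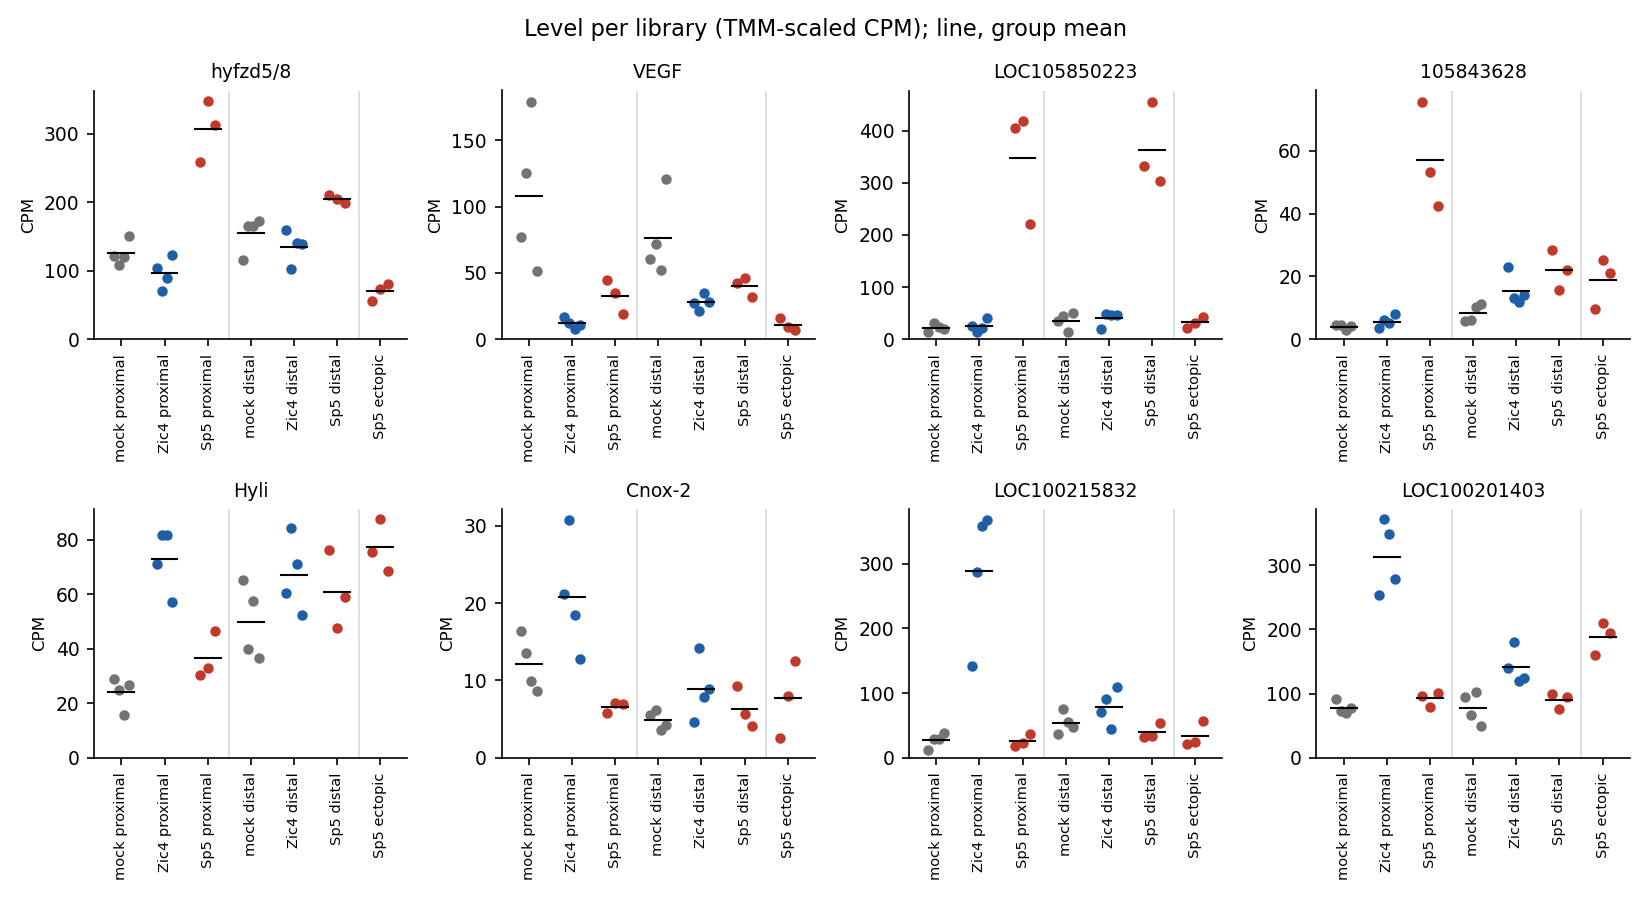
Level in CPM of 8 called genes in each library, by group, with a line at the group mean; grey, mock; blue, Zic4 RNAi; red, Sp5 RNAi, and grey rules divide proximal parts, distal parts and ectopic tentacles. In the upper row the proximal Sp5 RNAi points lie above the proximal Zic4 RNAi points, and in the lower row below them, while the Sp5 RNAi points of LOC105850223 are far above the Zic4 RNAi points in the distal parts too.

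Growth factor and receptor tyrosine kinase genes had 1 member called of 12 tested, with a median log2 fold change of 0.07. The called gene, VEGF (LOC100205498), encodes a secreted growth factor of the vascular endothelial family. Its level was 45, 35 and 18.8 CPM after Sp5 RNAi and 17.1, 11.9, 7.92 and 10.7 CPM after Zic4 RNAi. The lowest Sp5 RNAi library was just above the highest Zic4 RNAi library. Levels of 32.9 ± 13.2 CPM (SD, n = 3) and 11.9 ± 3.84 CPM (SD, n = 4) differed 2.75-fold (log2 fold change 1.46, SE 0.39, adjusted p = 0.0338). Both were below the mock proximal parts, which had 77.2, 125, 179 and 51.4 CPM. Against these same mock libraries the log2 fold change was -3.17 after Zic4 RNAi (adjusted p = 8.69e-06) and -1.71 after Sp5 RNAi (adjusted p = 0.0117). The VEGF call between the knockdowns was lost in 7 of 15 alternative fits, with an adjusted p of 0.232 with the covariate for abundant genes, and of 0.199 and 0.128 without Sp5 RNAi replicates 1 and 2. Without Zic4 RNAi replicates 2, 3 and 4 it was 0.09, 0.0916 and 0.0729.

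The insulin-like peptide genes ilp1 and ilp2 had positive log2 fold changes, as VEGF did, and were not called by edgeR in the reported fit. For ilp2 the Sp5 RNAi libraries had 61.9, 37.8 and 27.2 CPM and the Zic4 RNAi libraries 26.3, 9.82, 20.2 and 25.7 CPM, with the groups just apart (log2 fold change 1.04, SE 0.34, adjusted p = 0.0817). The ilp2 difference was called by DESeq2 (adjusted p = 0.0425) and without Sp5 RNAi replicate 3 (adjusted p = 0.0429). For ilp1 they had 26.4, 37.4 and 20.6 CPM and 12.6, 6.12, 18.4 and 16.7 CPM, also without overlap (log2 fold change 1.06, SE 0.47, adjusted p = 0.182). The tyrosine kinase gene HTK98 went the other way, at 3.71, 5.91 and 7.82 CPM after Sp5 RNAi and 13.2, 12.4, 14.5 and 14.9 CPM after Zic4 RNAi (log2 fold change -1.22, SE 0.42, adjusted p = 0.0914). HTK98 was called by DESeq2 (adjusted p = 0.0483) and with the compared groups alone (adjusted p = 0.0393). Its groups did not overlap, and mock proximal parts were lower than both, at 2.04 to 3.58 CPM.

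Among 9 intracellular signalling genes none was called by edgeR, DESeq2 or limma voom, with 3 at an unadjusted edgeR p under 0.05 and a median log2 fold change of -0.17. The G protein alpha subunit gene gnai3 had 555, 413 and 438 CPM after Sp5 RNAi and 346, 243, 279 and 315 CPM after Zic4 RNAi, without overlap (log2 fold change 0.66, SE 0.24, adjusted p = 0.11). The ribosomal S6 kinase gene RSK had 14.9, 23.6 and 45.7 CPM and 81.2, 116, 56.1 and 44.4 CPM, and Sp5 RNAi replicate 3 reached the Zic4 RNAi range (log2 fold change -1.40, SE 0.56, adjusted p = 0.14). The scaffold gene RACK1 was at 4787, 2135 and 1820.3 CPM after Sp5 RNAi and 1404, 1247, 1656 and 1970.3 CPM after Zic4 RNAi. Sp5 RNAi replicate 1 alone carried most of that gap (log2 fold change 0.89, SE 0.42, adjusted p = 0.206).

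**Figure D4:**
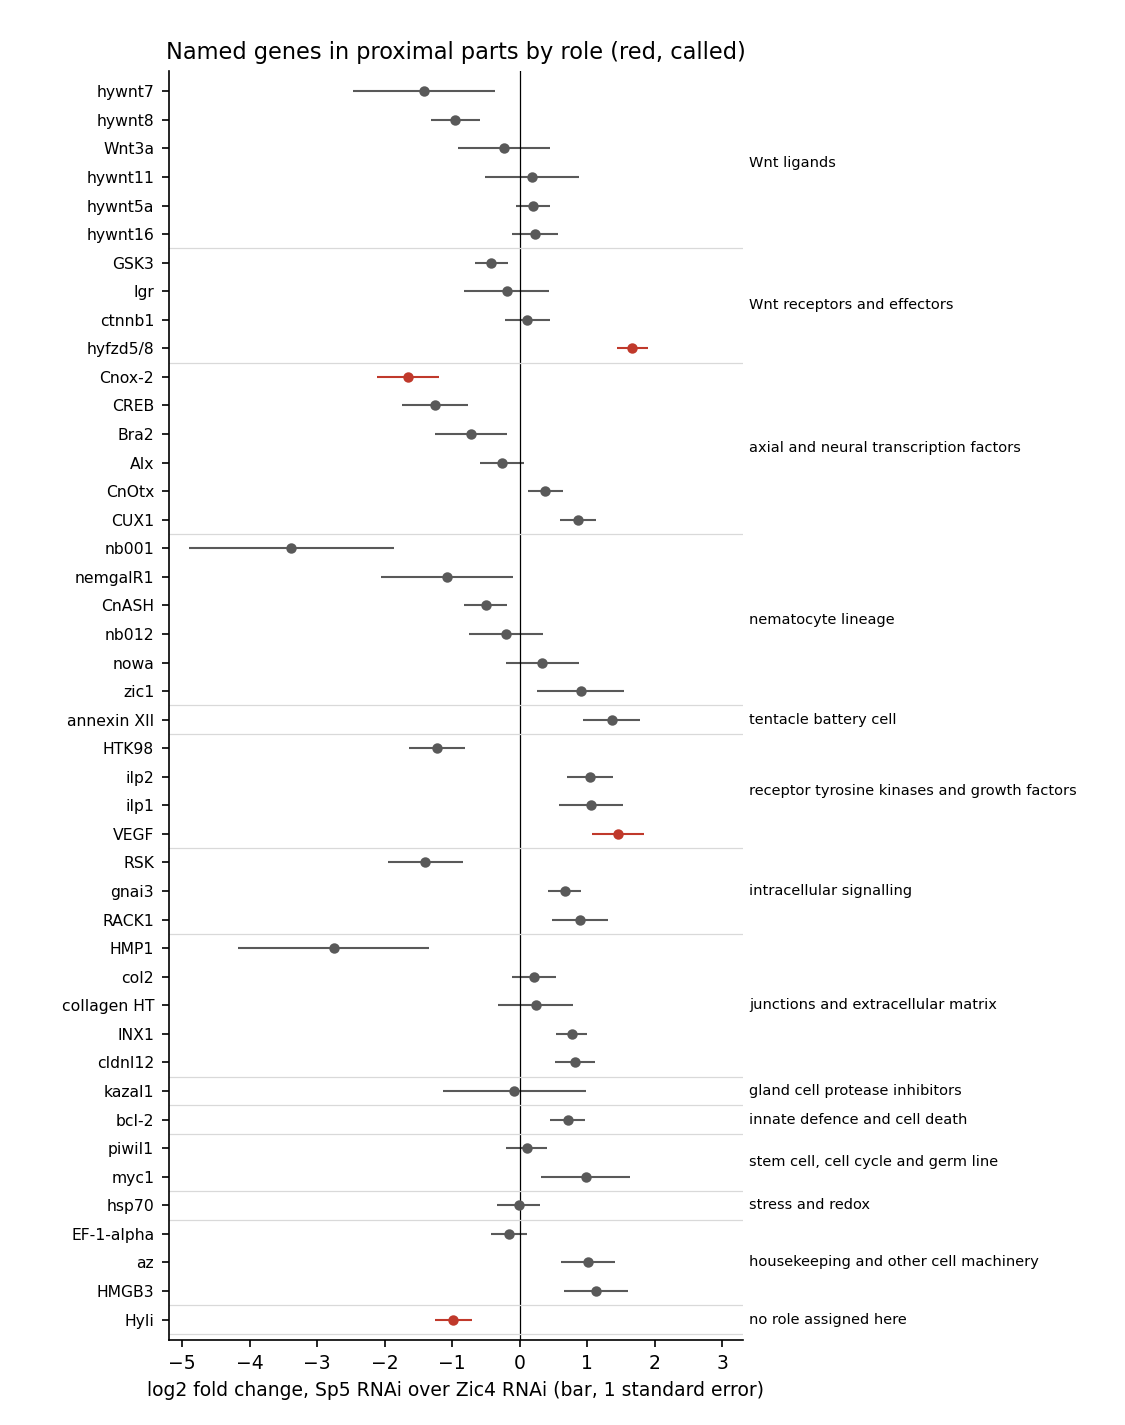
Log2 fold change, Sp5 RNAi over Zic4 RNAi in proximal parts, of selected named genes ordered by role, with bars of 1 standard error; red points are the 4 called genes and grey points were not called. HyBra1, with 0 counts in all Sp5 RNAi libraries, and CnNK-2, with 0 counts in all Zic4 RNAi libraries, were not called and are not drawn. The called genes hyfzd5/8 and VEGF lie to the right of 0 and Cnox-2 and Hyli to the left, and among the genes drawn bars are widest for those with unequal replicates such as nb001.

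Annexin XII (LOC100203975), a calcium-binding membrane protein gene and marker of tentacle battery cells, had 12485, 6874 and 4736 CPM after Sp5 RNAi and 2878, 2932, 2921 and 3760.5 CPM after Zic4 RNAi. Each Sp5 RNAi library was above each Zic4 RNAi library, and Sp5 RNAi replicate 1 was far above the others. The means of 8032 ± 4002 CPM (SD, n = 3) and 3123 ± 426 CPM (SD, n = 4) gave a log2 fold change of 1.36 (SE 0.42), which missed the threshold with an adjusted p of 0.0634 by edgeR. It was called in 4 of 15 alternative fits, by DESeq2 (adjusted p = 0.0253), with the compared groups alone (0.0284), with the replicate block (0.0361) and without Sp5 RNAi replicate 3 (0.0314). Over all 15 the log2 fold change ran from 0.63 to 1.64 and the adjusted p to 0.449. Mock proximal parts had 7588, 17322, 15922 and 7119.5 CPM. Against mock, the log2 fold change was -1.94 after Zic4 RNAi (adjusted p = 0.00079) and -0.58 after Sp5 RNAi (adjusted p = 0.46). In bulk tissue fewer cells of a type and less RNA per cell cannot be told apart, for this marker and for those that follow. In distal parts annexin XII stood at 1472, 1337 and 1524 CPM after Sp5 RNAi and 2588, 2152, 1550.5 and 4137 CPM after Zic4 RNAi (log2 fold change -0.85, adjusted p = 0.473), and the proximal and distal contrasts were not shown to differ (adjusted p = 0.154).

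Of 11 genes of junctions and extracellular matrix, 10 were tested and none was called by edgeR in the reported fit or by limma voom, with 2 at an unadjusted edgeR p under 0.05 and a median log2 fold change of 0.22. DESeq2 called 1 of them, INX1. INX1, an innexin gene of gap junctions, had 5322, 4985 and 4044 CPM after Sp5 RNAi and 2605, 2669, 3005 and 2939.5 CPM after Zic4 RNAi. The groups were well apart, with a small difference of 0.77 on the log2 scale (SE 0.23, adjusted p = 0.0599 by edgeR). INX1 was called in 4 of 15 alternative fits, by DESeq2 (adjusted p = 0.00455), with RLE scaling (0.0494), with the replicate block (0.0357) and without Sp5 RNAi replicate 3 (0.0418). The claudin-like gene cldnl12, of a family of epithelial junction proteins, had 297, 327 and 212 CPM and 161, 169.8, 148 and 150.2 CPM, again apart (log2 fold change 0.82, SE 0.30, adjusted p = 0.108, and 0.0404 with the compared groups alone). Collagen genes of the matrix were not called. The log2 fold change was 0.24 (SE 0.55) for the collagen gene LOC100199754 and 0.21 (SE 0.33) for col2. HMP1, a metalloproteinase gene, was at 4.13, 0 and 0.313 CPM after Sp5 RNAi and 4.38, 5.74, 8.93 and 19.3 CPM after Zic4 RNAi, without overlap but with few counts (log2 fold change -2.75, SE 1.42, adjusted p = 0.256).

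Markers of cells that lie mainly outside the tentacle had no call by edgeR and varied widely between libraries. The 10 genes of the nematocyte lineage had no call by edgeR, DESeq2 or limma voom, 1 member at an unadjusted edgeR p under 0.05, 7 negative log2 fold changes and a median of -0.68. Their summed level was 53.2 to 91.3 CPM in the Sp5 RNAi libraries and 51.7, 347.5, 40.5 and 355.3 CPM in the Zic4 RNAi libraries, with 0 to 2 members at 0 counts in any of the 7 libraries. Zic4 RNAi replicates 2 and 4 were high, mostly through the nematoblast gene nb001, which had 0.826, 276, 1.45 and 269 CPM there in replicate order and 12, 13.8 and 13.5 CPM after Sp5 RNAi (log2 fold change -3.39, SE 1.52, adjusted p = 0.192). The nematocyst capsule gene nowa had 12.7 ± 4.53 CPM (SD, n = 3) and 10.1 ± 3.14 CPM (SD, n = 4) after Sp5 and Zic4 RNAi (log2 fold change 0.33, SE 0.54). The nematoblast gene nb012 and CnASH, an achaete-scute homolog of nematocyte differentiation, had log2 fold changes of -0.21 (SE 0.55) and -0.50 (SE 0.32). The gene zic1, a relative of Zic4, was at 4.54, 21.7 and 26 CPM after Sp5 RNAi and 12.7, 9.31, 5.25 and 10.1 CPM after Zic4 RNAi, with overlap (log2 fold change 0.90, SE 0.64, adjusted p = 0.414).

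The gland cell gene kazal1, a protease inhibitor gene, had 99.9, 8.66 and 8.76 CPM after Sp5 RNAi and 12.8, 38.7, 55.1 and 58.2 CPM after Zic4 RNAi. Sp5 RNAi replicate 1 was high and the other Sp5 RNAi libraries were below every Zic4 RNAi library. The 9 head organizer genes summed to 22.7, 31.9 and 45.4 CPM after Sp5 RNAi and 48.6, 65.8, 68.2 and 71.9 CPM after Zic4 RNAi, where hywnt7 was the largest member, with 5 members at 0 counts in each Sp5 RNAi library and 3 to 4 in the Zic4 RNAi libraries. Mock proximal parts summed to 17.8 to 57.8 CPM for that list, with 4 to 6 members at 0 counts. Members at 0 were counted without scaling for depth, which was lower in the Sp5 RNAi than in the Zic4 RNAi libraries. The list was matched by name pattern and leaves out Wnt3a, which differed in its order of groups. Wnt3a was at 7.35 to 25.7 CPM in mock proximal parts and at most 4.69 CPM after either knockdown, so the place of mock in these sums depends on the list. The part of such cells in the called differences was not tested.

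Genes of the general cell machinery, innate defence and cell death, and stem cells, 8 tested in each list, had no call by edgeR in the reported fit or by limma voom, with 3, 2 and 1 at an unadjusted edgeR p under 0.05. DESeq2 called 1 of them, bcl-2, an inhibitor of cell death. In the defence and cell death list 7 of 8 log2 fold changes were positive, and bcl-2 was at 40.9, 37.4 and 31 CPM after Sp5 RNAi and 25.3, 21.1, 22.2 and 20.3 CPM after Zic4 RNAi (log2 fold change 0.71, SE 0.26, adjusted p = 0.111 by edgeR and 0.0453 by DESeq2). The stem cell gene piwil1, which acts with small RNAs against transposons, was nearly level at 336 ± 18 CPM (SD, n = 3) and 313 ± 13.6 CPM (SD, n = 4) (log2 fold change 0.10, SE 0.30). The growth regulator myc1 had 17.3, 5.91 and 4.38 CPM and 3.72, 7.14, 2.79 and 4.91 CPM, with overlap (log2 fold change 0.98, SE 0.66). The elongation factor gene EF-1-alpha and the heat shock gene hsp70 had log2 fold changes of -0.16 (SE 0.26) and -0.01 (SE 0.32). The tested genes of BMP and Notch signalling (3), stress and redox (3) and nerve cells and ion channels (4) had no call by edgeR, DESeq2 or limma voom, with 1, 0 and 0 at an unadjusted edgeR p under 0.05.

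HMGB3, a chromatin protein gene, and az, the ornithine decarboxylase antizyme gene, were higher in Sp5 RNAi replicate 1 than in every other library of the comparison. HMGB3 had 533, 172 and 93.5 CPM after Sp5 RNAi and 95.5, 109.8, 125 and 154 CPM after Zic4 RNAi, and az had 457, 277 and 186 CPM and 123, 164, 146 and 176 CPM. Neither was called by edgeR (adjusted p = 0.157 and 0.133), and HMGB3 had an adjusted p of 0.0499 without Sp5 RNAi replicate 3 and 0.919 without replicate 1. Sp5 RNAi replicate 1 also had the lowest TMM factor of the 7 libraries, 0.753, and the highest share of counts in the 10 most abundant genes, 16.17%.

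Hyli (LOC100213798) was the fourth named gene called. It was assigned to no role here, so the counts of the role lists above leave it out. It had 30.5, 33.1 and 46.6 CPM after Sp5 RNAi and 71, 81.7, 81.9 and 57 CPM after Zic4 RNAi. The groups did not overlap, and Zic4 RNAi replicate 4 was the nearest to the Sp5 RNAi libraries. Levels of 36.7 ± 8.64 CPM (SD, n = 3) and 72.9 ± 11.7 CPM (SD, n = 4) gave a log2 fold change of -0.99 (SE 0.27, adjusted p = 0.0409). Mock proximal parts had 29, 24.9, 15.6 and 26.8 CPM, and against them the log2 fold change was 1.58 after Zic4 RNAi (adjusted p = 7.49e-05) and 0.60 after Sp5 RNAi (adjusted p = 0.194). The Hyli call was lost in 7 of 15 alternative fits, with an adjusted p of 0.194 with the covariate for abundant genes, and of 0.189 and 0.172 without Sp5 RNAi replicates 1 and 2. Without Zic4 RNAi replicates 1, 2 and 3 it was 0.0739, 0.11 and 0.0875.

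Most called genes have a number in place of a name, and 309 of the 526 matched an entry in the RefSeq gene table. The smallest adjusted p-values in the comparison belonged to such genes, and the 5 in each direction with the smallest, among genes of at least 10 CPM without overlap, were chosen after the values were seen. LOC105850223 had 405, 418 and 221 CPM after Sp5 RNAi and 24.9, 13.4, 21.3 and 41.6 CPM after Zic4 RNAi, a 13.8-fold difference (log2 fold change 3.78, SE 0.42, adjusted p = 1.41e-05). The lowest Sp5 RNAi library was many times the highest Zic4 RNAi library. Its distal parts repeated the pattern, with 332, 455 and 304 CPM after Sp5 RNAi and 20.1, 48.3, 46.3 and 46.5 CPM after Zic4 RNAi (log2 fold change 3.18, SE 0.41, adjusted p = 0.000449). Mock parts had 13.5 to 30.3 CPM proximally and 13.6 to 50.2 CPM distally, and the ectopic tentacles of the same Sp5 RNAi treatment had 21.7, 31.9 and 43.3 CPM. High levels of LOC105850223 were thus seen in the original tentacles after Sp5 RNAi, in both parts, and in no library of the 5 other groups; the difference between original and ectopic tentacles was not tested.

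Gene 105843628 had 75.5, 53.2 and 42.5 CPM after Sp5 RNAi and 3.63, 6.0, 5.02 and 7.89 CPM after Zic4 RNAi (log2 fold change 3.34, SE 0.36, adjusted p = 1.38e-05), with 2.84 to 4.63 CPM in mock proximal parts. Its distal parts had 28.5, 15.6 and 22 CPM after Sp5 RNAi and 23, 13, 11.8 and 13.9 CPM after Zic4 RNAi (log2 fold change 0.51, SE 0.34). The difference between the parts passed the interaction test, at 2.83 on the log2 scale (SE 0.50, adjusted p = 0.037). In genes 100204625 and LOC101235368 the mock levels lay nearer to Sp5 RNAi than to Zic4 RNAi. Gene 100204625 had 118, 89 and 85.1 CPM after Sp5 RNAi, 16, 7.91, 13.1 and 19 CPM after Zic4 RNAi and 75.6, 70.9, 56.1 and 71.6 CPM in mock proximal parts (adjusted p between the knockdowns = 5.02e-05). LOC101235368 had 149.8, 134 and 70.7 CPM, 18.5, 8.42, 12.5 and 22.1 CPM and 91.5, 53.8, 75.3 and 43.9 CPM in the same order (adjusted p = 6.05e-05). LOC100214463 had 89.2, 42.5 and 22.2 CPM after Sp5 RNAi, 1.9, 2.42, 0.781 and 1.55 CPM after Zic4 RNAi and 1.42 to 3.42 CPM in mock proximal parts (log2 fold change 4.93, SE 0.64, adjusted p = 0.000101). Genes 100201671 and 100205312 tied with it in adjusted p by edgeR, with log2 fold changes of 5.11 and 5.22, and are not described further.

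The largest folds higher after Sp5 RNAi, among called genes of at least 10 CPM without overlap, had unequal Sp5 RNAi libraries. Gene 100205832 had 168, 9.06 and 14.4 CPM after Sp5 RNAi and 0.165, 0.383, 0.67 and 2.72 CPM after Zic4 RNAi (log2 fold change 6.06, SE 1.25, adjusted p = 0.0103), and its call was lost in 2 of 15 alternative fits. It had 2, 3, 6 and 21 counts in the Zic4 RNAi libraries, so the size of its fold is uncertain. Without Sp5 RNAi replicate 1 the log2 fold change dropped to 3.62 (adjusted p = 0.128), and with the covariate for abundant genes it was 6.32 (adjusted p = 0.121). Gene 100213534 had 364, 129.6 and 56.9 CPM and 3.06, 2.42, 2.23 and 8.15 CPM (log2 fold change 5.54, SE 0.82, adjusted p = 0.000447). It kept its call in all 15 alternative fits. Both were also higher on average after Sp5 RNAi in the distal parts, without a call (log2 fold change 4.54 and 2.87, adjusted p = 0.199 and 0.131).

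By the same limits, the largest folds higher after Zic4 RNAi were those of LOC100215832 and gene 100214050. LOC100215832 had 17.7, 22.4 and 36.6 CPM after Sp5 RNAi, 141, 287, 359 and 367 CPM after Zic4 RNAi and 11.8, 29.2, 28.4 and 38.2 CPM in mock proximal parts. The Sp5 RNAi and mock libraries shared a range that every Zic4 RNAi library exceeded, by 11.2-fold over Sp5 RNAi in the means (log2 fold change -3.49, SE 0.46, adjusted p = 0.000101). Gene 100214050 had 2.06, 0.788 and 0.938 CPM after Sp5 RNAi and 10.1, 8.42, 25.1 and 14.5 CPM after Zic4 RNAi (log2 fold change -3.53, SE 0.59, adjusted p = 0.00122). It had 5, 2 and 3 counts in the Sp5 RNAi libraries, close to the floor of 3 counts, so the size of its fold is uncertain. Its mock proximal parts lay between the knockdowns, at 3.68, 2.14, 3.55 and 7.97 CPM. LOC100201403 followed LOC100215832, with 96.6, 79.5 and 101 CPM after Sp5 RNAi, 254, 371, 349 and 279 CPM after Zic4 RNAi and 91.5, 73.4, 68.9 and 77.9 CPM in mock proximal parts (adjusted p = 0.000251). Genes 100215635 and 100197695 had group means of 55.2 and 126 CPM after Zic4 RNAi, 7.03 and 17.6 CPM after Sp5 RNAi and 7.76 and 27.4 CPM in mock proximal parts (adjusted p = 0.00041 and 0.000552 between the knockdowns).

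Gene 100213023 differed from LOC100215832 and LOC100201403 in that its mock levels were nearer to Zic4 RNAi and its low group was Sp5 RNAi. It had 35.9, 28.4 and 43.8 CPM after Sp5 RNAi, 148, 167, 203 and 156 CPM after Zic4 RNAi and 128, 100.5, 86 and 195 CPM in mock proximal parts (log2 fold change -2.22, SE 0.34, adjusted p = 0.000437). The distal parts gave 43.2, 41.6 and 38.9 CPM after Sp5 RNAi and 108, 107, 73.3 and 182 CPM after Zic4 RNAi, a called difference in the same direction (log2 fold change -1.51, adjusted p = 0.0396).

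The same contrast in the distal parts, which shares no library with the proximal one, called 45 of 14332 genes (0.314%), 24 higher after Sp5 RNAi (0.167%) and 21 higher after Zic4 RNAi (0.147%). Depth overlapped in the distal parts, unlike in the proximal ones, at 6.11 to 8.17 M counts after Sp5 RNAi and 5.02 to 7.56 M after Zic4 RNAi. The 10 most abundant genes took 10.97% to 13.04% and 11.16% to 13.49% of the distal counts in that order. The part of depth and composition in the numbers of calls was not tested. Of the 526 genes called proximally, 376 (71.5%) had the same sign distally, against 53.3% of all genes tested. Same-sign values were found for 269 of the 362 genes higher after Sp5 RNAi (74.3%), with a median distal log2 fold change of 0.41, and for 107 of the 164 genes higher after Zic4 RNAi (65.2%), with a median of -0.12. Genes called in both parts numbered 16, all in the same direction, which is 3.04% of the proximal and 35.6% of the distal calls. Across all 14332 genes, which are not independent replicates, the proximal and distal log2 fold changes had a Pearson r of 0.207 and a Spearman rho of 0.122. The parts may come from the same animals. Among the 72 genes called in every fit, 55 of 59 higher after Sp5 RNAi had the same sign distally (median distal log2 fold change 0.95, 7 called), as did 9 of 13 higher after Zic4 RNAi (median -0.29, 1 called).

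**Figure D5:**
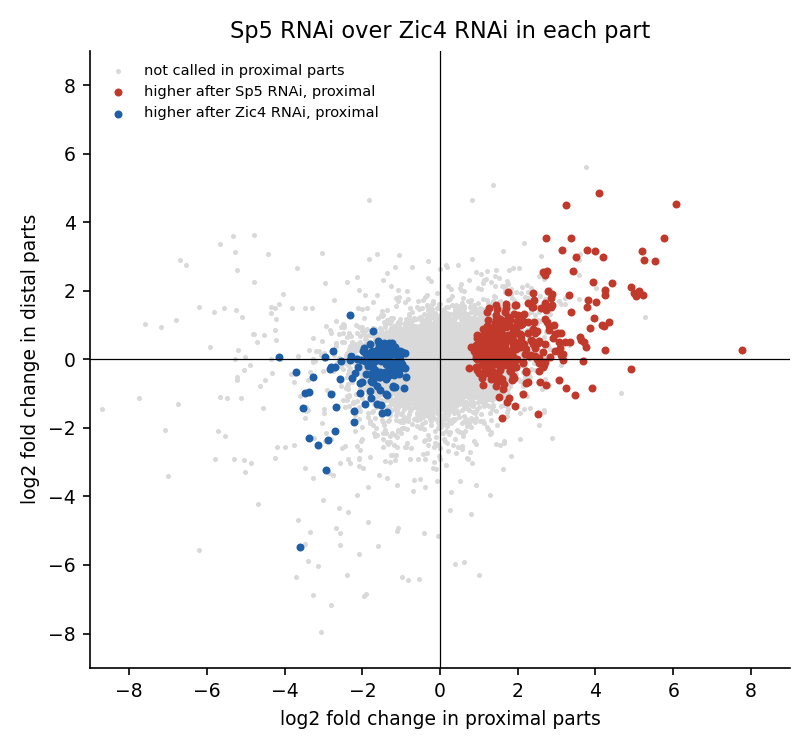
Log2 fold change of Sp5 RNAi over Zic4 RNAi in distal parts (n = 3 against 4) against that in proximal parts (n = 3 against 4) for 14332 genes; red and blue points are the genes called in the proximal parts. Red points extend into the upper right, with a median distal value of 0.41, while blue points spread around 0 distally, with a median of -0.12.

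Fewer calls in the distal parts did not by themselves show a difference between the parts. The test of that difference, the interaction term, called 2 genes of 14332 (0.014%), and 2107 had an unadjusted p under 0.05. One was 105843628, described above. The other, 101237310, had 55.7, 39.4 and 23.5 CPM after Sp5 RNAi and 11.5, 8.17, 15.5 and 17.3 CPM after Zic4 RNAi proximally (log2 fold change 1.59, SE 0.39, adjusted p = 0.0226), and 2.91, 2.07 and 4.13 CPM and 12.1, 9.49, 6.59 and 11.7 CPM distally (log2 fold change -1.72, SE 0.43, adjusted p = 0.0778). Its groups were in opposite order in the parts, and the difference was 3.31 on the log2 scale (SE 0.58, adjusted p = 0.037). Its proximal call was lost in 5 of 15 alternative fits, with an adjusted p of 0.184 with the covariate, 0.16 and 0.084 without Sp5 RNAi replicates 1 and 2, and 0.0632 and 0.0864 without Zic4 RNAi replicates 1 and 2. Both interaction calls were lost with thinned libraries, with the covariate, with the replicate number as a block, and on leaving out proximal Sp5 RNAi replicate 1 or 2, proximal Zic4 RNAi replicate 1 or 2, any distal Sp5 RNAi library, or distal Zic4 RNAi replicate 1, 2 or 4. One of them was lost without proximal Zic4 RNAi replicate 3.

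Against the mock proximal parts, which both contrasts share, Zic4 RNAi called 4766 genes (33.3%), 2534 higher than mock (17.7%) and 2232 lower (15.6%). Sp5 RNAi called 958 (6.68%), 619 higher than mock (4.32%) and 339 lower (2.37%). The mock contrasts carry the same differences in depth and composition given above, and with the share of abundant genes as a covariate they called 10 and 71 genes. The direct comparison of the knockdowns has no mock group in its contrast. Mock libraries still entered its filter, scaling and estimate of the spread.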

How the data were processed

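RNA-seq counts of 36 tentacle libraries were deposited by the authors as 1 table of raw, unnormalized counts; bcl2fastq and STAR 2.5.0 are named in the submitters' processing notes, and the counting program, genome build, annotation and strand setting are not given in the sources used here. Values of genes that share reads with similar or overlapping genes are uncertain.

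From these counts, 25 libraries of divided and ectopic tentacles in 7 groups were fitted together with edgeR 4.0.16 in R 4.3.3 (filterByExpr, TMM, robust quasi-likelihood fit, Benjamini-Hochberg over 14332 genes, threshold 0.05). Each SE was computed from the fold change and its F statistic. Totals of the 7 compared libraries were 2.57 to 10.59 M counts. The script was tested on simulated data. Alternatives were DESeq2 1.42.0, limma 3.58.1 voom, RLE scaling, no filter, the compared groups alone, thinning to at most 2.57 M counts, a covariate for the share of the 10 most abundant genes, a replicate block, and each library left out.

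Gene names came from a RefSeq table of HydraT2T_AEP, used for names only (9547 matched; 120 own names). It holds no descriptions, so the naming rule's part on described genes could not be applied. Named were every called gene with its own name, the 2 largest rises and falls among called genes of at least 10 CPM in the higher group and without overlap, genes of the interaction, and, added later, by the same limits, the 5 smallest adjusted p-values in each direction; other named genes illustrate their role lists. Of 24 marker lists 12 had no match, and the matches of the others are among the genes with their own name. Members, lists and tests were chosen with earlier results of these data known.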

Additional observations from a re-analysis of the deposited data

Results flagged for a closer look

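Gaps were examined in 126 groups of 4 libraries, and in 10 of them 1 library stood apart from the other 3 by Dixon's criterion, which chance meets in about 1 in 20 groups. In the Zic4 RNAi proximal parts, replicate 4 stood apart for gene 100213534 at 8.15 CPM and for annexin XII at 3761 CPM, and replicate 3 for hywnt8 at 72.9 CPM. Replicate 1 of that group was the deepest, at 10.6 M counts against 6.91 to 7.45 M in the others. In the mock proximal parts, replicate 1 stood apart for zic1 at 11 CPM and CUX1 at 33.5 CPM, and replicate 2 for nb001 at 213 CPM. Replicate 3 stood apart there for CREB at 1.42 CPM, and replicate 4 for RSK at 54.7 CPM. Replicate 4 also met the criterion for CnNK-2, at 0.163 CPM against 0 in the others, where any value above 0 would meet it.

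The difference of the contrast between proximal and distal parts passed the interaction test for 2 genes, at 2.83 on the log2 scale for 105843628 and 3.31 for 101237310.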

How the results depend on the processing

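Calls between Sp5 and Zic4 RNAi in proximal parts numbered 552 with RLE scaling, 474 with limma voom, 398 without a filter on low counts and 496 with thinned libraries, against the reported 526. They numbered 1121 with DESeq2, 1189 from the compared groups alone and 99 with the covariate for abundant genes, and 129 to 830 with 1 library left out. Distal calls, 45 as reported, became 219 with DESeq2 and 74 with limma voom, and 4 to 128 with 1 library left out (10, 4 and 20 without Sp5 RNAi replicates 1, 2 and 3, and 11, 128 and 12 without Zic4 RNAi replicates 2, 3 and 4). Interaction calls, 2 as reported, became 145 with DESeq2, 4 without a filter, 90 from the compared groups alone, and 0 to 7 with 1 library left out. With edgeR they were 0 with thinned libraries and 0 with the covariate, where 1897 and 1549 genes had an unadjusted p under 0.05. Calls against mock changed from 4766 to 10 for Zic4 RNAi with the covariate, and ran from 3620 to 5622 with 1 library left out. For Sp5 RNAi, 958 as reported, they were 1469 with DESeq2, 434 with limma voom, 302 from the compared groups alone and 71 with the covariate, and ran from 261 to 1243 with 1 library left out (261 without Sp5 RNAi replicate 3, 529 without replicate 2, and 380 and 613 without mock replicates 2 and 3). The cause of these changes was not tested.

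The deviations of same-numbered Sp5 and Zic4 RNAi libraries had correlations of -0.0217, -0.0908 and -0.110 in proximal parts. In distal parts they were 0.162, -0.126 and -0.178. The numbers were not taken as pairs, though so few values cannot exclude pairing. With the replicate number as a block, calls were 665 in proximal parts, 18 in distal parts, 0 in the interaction (2074 genes at an unadjusted p under 0.05) and 512 for Sp5 RNAi against mock.

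No alternative reversed a called gene among those named. Calls of single named genes were lost in 9 and gained in 14 of the combinations of gene and setting other than leaving out a library, and lost in 21 and gained in 5 of those leaving out 1 library. Depth limits scarce genes most, since 3 counts equal 1.12 CPM in the Sp5 RNAi libraries.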
